A study of Mus musculus with 12 samples.

Results

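Ferritin and iron handling is described here through 10 genes, chosen by name and matched by Entrez gene number: Fth1, Ftl1, Slc11a1, Slc11a2, Slc40a1, Tfrc, Hmox1, Ireb2, Aco1 and Ncoa4. All 10 were found among the 36528 gene numbers of the deposited tables, and 9 of them passed the filter on low counts. RNA was sequenced from Cd11b-positive brain myeloid cells of male mice aged 6 months, in 12 libraries. The hMAPT-P301S mice (P301S, 6 libraries) carry a transgene for human tau with the P301S change. The controls (NonTg, 6 libraries) were their littermates that lack it. Cd11b is a surface integrin of microglia and of other myeloid cells. The comparison asks how the cells differ between these genotypes. The transgene's promoter is not stated in the labels, and its human reads were not used here. No label ties a library to 1 animal, so each p-value below reflects how these libraries vary, which may be technical in part.

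Iron enters most cells bound to transferrin through the transferrin receptor, and macrophages also recover it from engulfed cells and haem. Divalent metal transporters move it out of endosomes and phagosomes, ferritin stores it, and ferroportin exports it. When iron is scarce, the iron regulatory proteins bind hairpins called iron-responsive elements (IREs): binding in a 5′ untranslated region blocks translation and binding in a 3′ untranslated region stabilises the transcript. In the brain, microglia are known to hold much ferritin.

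Sequences that match an IRE pattern were found in 4 of the 10 genes and are shown first. Transcript counts measure only the part of the regulation that acts on RNA level. GENCODE M21 transcripts of the mouse build GRCm38 were searched for a 17-base hairpin core, in which the bulged base c is followed by 5 bases, the loop CAGTGN and 5 bases that pair with the first 5. Pairs of G with U were allowed, and a G as the last base of the loop was not. The loop is in capitals, and each sequence runs 5′ to 3′ on the strand of its gene.
Fth1, 5′ untranslated region: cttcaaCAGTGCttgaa
Ftl1, 5′ untranslated region: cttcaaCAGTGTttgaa
Slc40a1, 5′ untranslated region: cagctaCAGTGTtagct
Tfrc, 3′ untranslated region, the first from the stop codon: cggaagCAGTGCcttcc
Tfrc, 3′ untranslated region, the second: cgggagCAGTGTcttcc
Tfrc, 3′ untranslated region, the third: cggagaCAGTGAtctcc
Tfrc, 3′ untranslated region, the fourth: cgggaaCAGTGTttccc

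The Fth1 core lies at chr19:9982738-9982754 on the plus strand, 115 bases before the start codon. The Ftl1 core lies at chr7:45459785-45459801 on the minus strand, 153 bases before it. The cores of the 2 ferritin genes differ by 1 substitution, C12T, with positions counted from the 5′ end and the Fth1 base first. The Slc40a1 core lies at chr1:45925471-45925487 on the minus strand, 207 bases before the start codon. The 4 Tfrc cores lie on the plus strand at chr16:32631225-32631241, chr16:32631604-32631620, chr16:32631669-32631685 and chr16:32631716-32631732, between 891 and 1382 bases after the coding sequence. The same pattern was present in transcripts of 332 of 55341 annotated genes (0.600%). A match describes the letters and is not evidence of binding. The pattern is strict and can miss an IRE, so the 4 Tfrc cores are numbered among matches only. Slc11a2 is known for a transcript form with an IRE of another shape, and the counts do not separate its forms.

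Only uniquely aligned reads were counted, so sequence shared with other genes bears on which member could collect reads. The share of 50-base windows of the first listed transcript that also occur in a transcript of another gene was 90.6% for Ftl1 (833 of 919 windows, shared with 17 other genes). For Ncoa4 it was 52.5% (1729 of 3294), all shared with Gm6768, and for Fth1 6.59% (58 of 880), all shared with Gm6977. Slc11a2 shared 2.02% and Slc11a1 1.15%, and the other 5 genes shared none. The read length is not given in the sources used here and 50 bases is only a yardstick, so these are not the shares of sequence that could collect no reads. The levels of Ftl1 and Ncoa4 are uncertain against those of the other members. Of 11 gene numbers annotated as ferritin or ferritin-like, Fth1 and Ftl1 carried nearly all counts: Ftl1-ps2 had 3 counts and Fthl17a had 4, each in 1 NonTg library. The other 7, among them the mitochondrial ferritin Ftmt, had none in any library. Slc11a2 is overlapped over 1017 bases by the noncoding gene Gm5475, which had 4 counts in all.

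**Figure D1:**
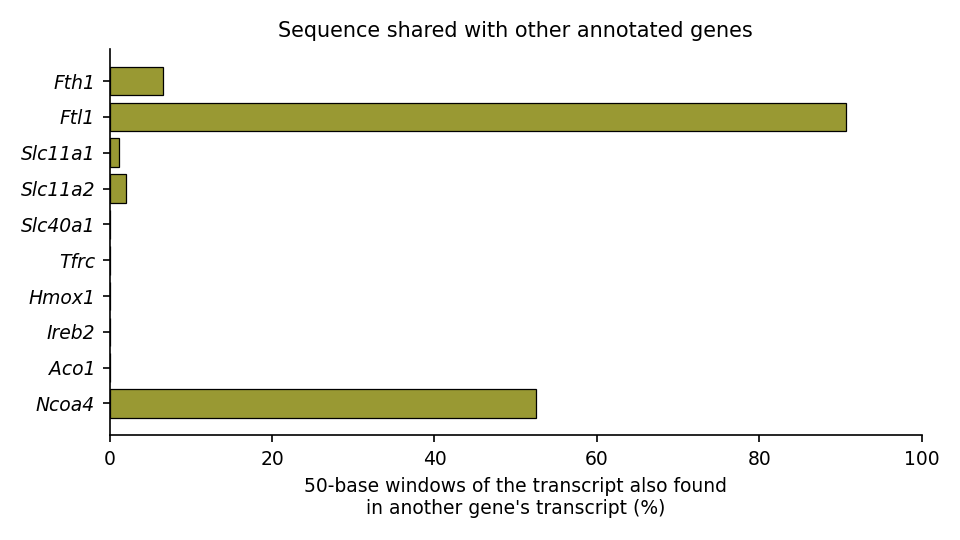
Bars give, for the first listed GENCODE M21 transcript of each of the 10 genes, the percentage of 50-base windows that also occur in a transcript of another gene. Ftl1 (90.6%) and Ncoa4 (52.5%) stand far above the other 8, the highest of which is Fth1 at 6.59%.

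Library totals ranged from 1196069 to 3268914 counts in NonTg and from 2000223 to 4145069 in P301S. All 8 microglial markers listed were detected, and their summed level was 8356 to 11646 CPM (counts scaled to a common library size) in NonTg and 4092 to 6208 in P301S. Of these 8, 4 fell past the test (P2ry12, Tmem119, Cx3cr1 and Siglech). Markers of border macrophages summed to 147 to 347 CPM against 117 to 228 in P301S, monocyte markers to 17.8 to 336 against 20.3 to 84.6, and neutrophil markers to 0.914 to 77.1 against 1.61 to 27.0. Single genes weigh heavily in these sums. Stab1, of the border macrophage list, had a mean of 198 CPM in NonTg and 137 in P301S. The monocyte marker Fn1 was at 285 CPM in its highest NonTg library (NonTg median 1.58), and the neutrophil marker Ltf at 69.0 CPM (NonTg median 0). Erythroid markers summed to 1.18 to 17.9 CPM against 0.317 to 9.04, where Slc4a1, the anion exchanger of red cells, had 3 counts in all and Alas2 had 102. Hba-a1 and Hba-a2 were listed at 0 in every library, which says little, since they are near-identical copies and only unique reads were counted. Oligodendrocyte markers summed to 199.5 to 288.5 CPM against 192 to 494, neuronal markers to 83.1 to 218 against 37.0 to 176, and astrocyte markers to 124 to 692 against 154 to 709. Endothelial markers summed to 8.52 to 111 CPM against 34.2 to 82.1, with Cldn5 at 0, and choroid plexus markers to 0.812 to 69.1 against 1.59 to 75.5. The endothelial marker Slco1a4 was at 89.5 CPM in its highest NonTg library, with a NonTg median of 0.540 CPM. Outside the microglial list, 2 tested markers passed, both higher in every P301S library than in any NonTg library: the astrocyte marker Gfap (log2 fold change 2.65, adjusted p = 0.0199, edgeR) and the endothelial marker Flt1 (2.99, adjusted p = 0.00559). Of the 6 tested astrocyte markers, 2 had estimates above 0 and 4 below, with a median of -0.05. Of the 3 tested endothelial markers, 1 was above 0 and 2 below, with a median of -0.92. No erythroid or choroid plexus marker passed the count filter. The share of counts from mitochondrially encoded genes was 10.0% to 19.2% in NonTg and 15.0% to 32.1% in P301S, and that of the nuclear RNA Malat1 was 12.4% to 19.2% against 7.82% to 10.6%. The Malat1 share and the microglial sum did not overlap between the groups. With the mitochondrial genes and Malat1 left out of the table, Fth1 (1.83, adjusted p = 2.21e-04, edgeR) and Slc11a1 (1.22, adjusted p = 0.00818) were still called, and the other 7 tested members still were not. That fit leaves out those rows only and does not adjust for what else differs between the libraries. The part of the cell type markers in the results on iron genes was not tested, and in such sorted pools fewer cells of a type and less RNA per cell cannot be told apart.

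Of the 10 genes, 2 rose in P301S and none fell: the ferritin heavy chain Fth1, 3.59-fold, and the phagosomal metal transporter Slc11a1, 2.36-fold. The light chain Ftl1 was higher in each of the 6 P301S libraries than in any NonTg library, on few reads and just short of the threshold. Estimates for Slc11a2, Hmox1 and Aco1 were above 0 and those for Slc40a1, Ireb2 and Tfrc below, none of them past the test. The test was edgeR's quasi-likelihood test with Benjamini-Hochberg adjustment over 10022 genes and a threshold of 0.05. It called 388 genes (3.87%), of which 238 (2.37%) rose and 150 (1.5%) fell. Among the 9 tested members 2 were called, 6 had an unadjusted p under 0.05, which 15.8% of all genes had, and their median log2 fold change was 1.24, against -0.02 over all genes. Groups did not overlap, with P301S above, for 3 members, which is the case for 2.24% of all genes tested, and 3.28% of all genes did not overlap in either direction. DESeq2 called 4 members (Fth1, Slc11a1, Ftl1 and Slc11a2) and 6.77% of the 15426 genes to which it gave an adjusted p. The members were chosen with earlier results of these data known, so these counts are a description.

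**Figure D2:**
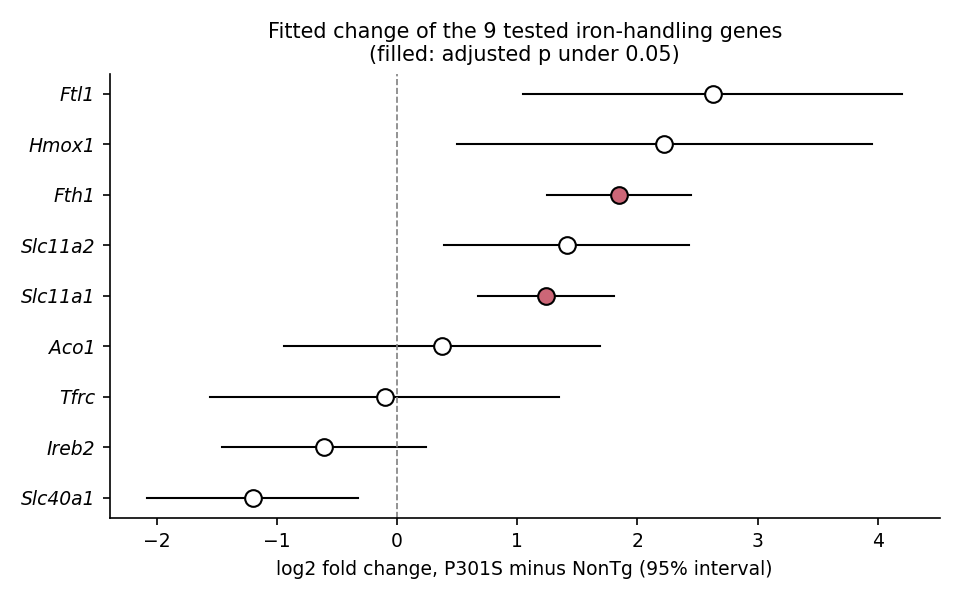
Points give the log2 fold change of P301S minus NonTg from edgeR for the 9 tested genes, with bars for the 95% interval, filled where the adjusted p was under 0.05. Fth1 (1.85) and Slc11a1 (1.24) are filled, while Ftl1, Hmox1, Slc11a2 and Slc40a1 have intervals that leave out 0 but did not pass the adjusted test.

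Storage is described first. Ferritin is a hollow shell of heavy and light chains, in which the heavy chain oxidises iron and the light chain aids the formation of the mineral core. Fth1 (gene number 14319, chr19:9980600-9985111) had a lowest, median and highest level of 31.1, 75.5 and 156 CPM in NonTg. In P301S these were 185, 288 and 441 CPM. The lowest P301S library (P301S 3) lay above the highest NonTg library (NonTg 6), so the groups did not overlap. The means were 81.8 ± 41.4 CPM in NonTg and 296 ± 85.5 CPM in P301S (SD, n = 6 each), from 1198 and 4968 counts. The log2 fold change was 1.85 ± 0.29 (SE), with a 95% interval of 1.25 to 2.44 and an adjusted p of 1.70e-04 (edgeR). On leaving out each library in turn the log2 fold change stayed between 1.70 and 2.14, and Fth1 was called each time.

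Ftl1 (14325, chr7:45457944-45459886) had a lowest, median and highest level of 0, 1.27 and 2.84 CPM in NonTg, and of 5.15, 9.89 and 10.97 CPM in P301S. All 6 P301S libraries were higher than all 6 NonTg libraries, although the NonTg group rests on 19 counts against 146. NonTg 4 had no Ftl1 count, and 3 counts, the limit that a count of 0 allows, would be 2.14 CPM in that library. The means were 1.34 ± 0.991 CPM and 8.92 ± 2.42 CPM (SD, n = 6 each). The fitted log2 difference was 2.62 ± 0.77, with a 95% interval of 1.05 to 4.20 and an adjusted p of 0.0516 (edgeR), so Ftl1 did not pass. It was called under 3 of the alternatives: DESeq2 (adjusted p = 0.00357) and limma on log2 of the adjusted RPKM plus 1 (0.00252) or plus 0.1 (0.00449).

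Ferritin is broken down with the help of Ncoa4, the receptor that carries it to lysosomes. Ncoa4 (27057, chr14:32159879-32179855) did not pass the count filter and was not tested. Its lowest, median and highest levels were 1.22, 2.35 and 8.59 CPM in NonTg and 0.510, 3.57 and 8.97 CPM in P301S, from 52 and 74 counts. Both groups spanned nearly the same range, and the ratio of the means, 3.52 ± 2.82 and 4.01 ± 2.96 CPM (SD, n = 6 each), was 1.14. The log2 ratio of the means, 0.19, was 0.68 without NonTg 6 and -0.22 without P301S 6.

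Metal transport out of vesicles came next. Slc11a1, also called Nramp1, removes iron and manganese from phagosomes of macrophages and is known for its part in resistance to intracellular bacteria. Slc11a1 (18173, chr1:74375014-74386057) had a lowest, median and highest level of 52.9, 70.5 and 112 CPM in NonTg. In P301S these were 129, 166 and 295 CPM. Every P301S library lay above every NonTg library, with P301S 1 far above the rest at 295 CPM. The means were 77.5 ± 25.2 and 183 ± 62.1 CPM (SD, n = 6 each), from 980 and 3183 counts. It rose by 1.24 ± 0.28 on the log2 scale, with a 95% interval of 0.67 to 1.80 and an adjusted p of 0.00753 (edgeR). The highest adjusted p over all 21 alternatives was 0.0432, without P301S 1.

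Slc11a2, also called DMT1, is the relative that moves iron out of endosomes after uptake by transferrin and across the gut wall. Slc11a2 (18174, chr15:100387898-100424209) had a lowest, median and highest level of 10.1, 11.9 and 19.6 CPM in NonTg and of 9.22, 35.3 and 56.6 CPM in P301S. In P301S, 5 of 6 libraries were above all of NonTg, while P301S 2 was below all of them, so the groups overlapped. The log2 fold change of 1.41 ± 0.50 (95% interval 0.39 to 2.43) did not pass, with an adjusted p of 0.118 (edgeR). DESeq2 called it, with an adjusted p of 0.0271.

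**Figure D3:**
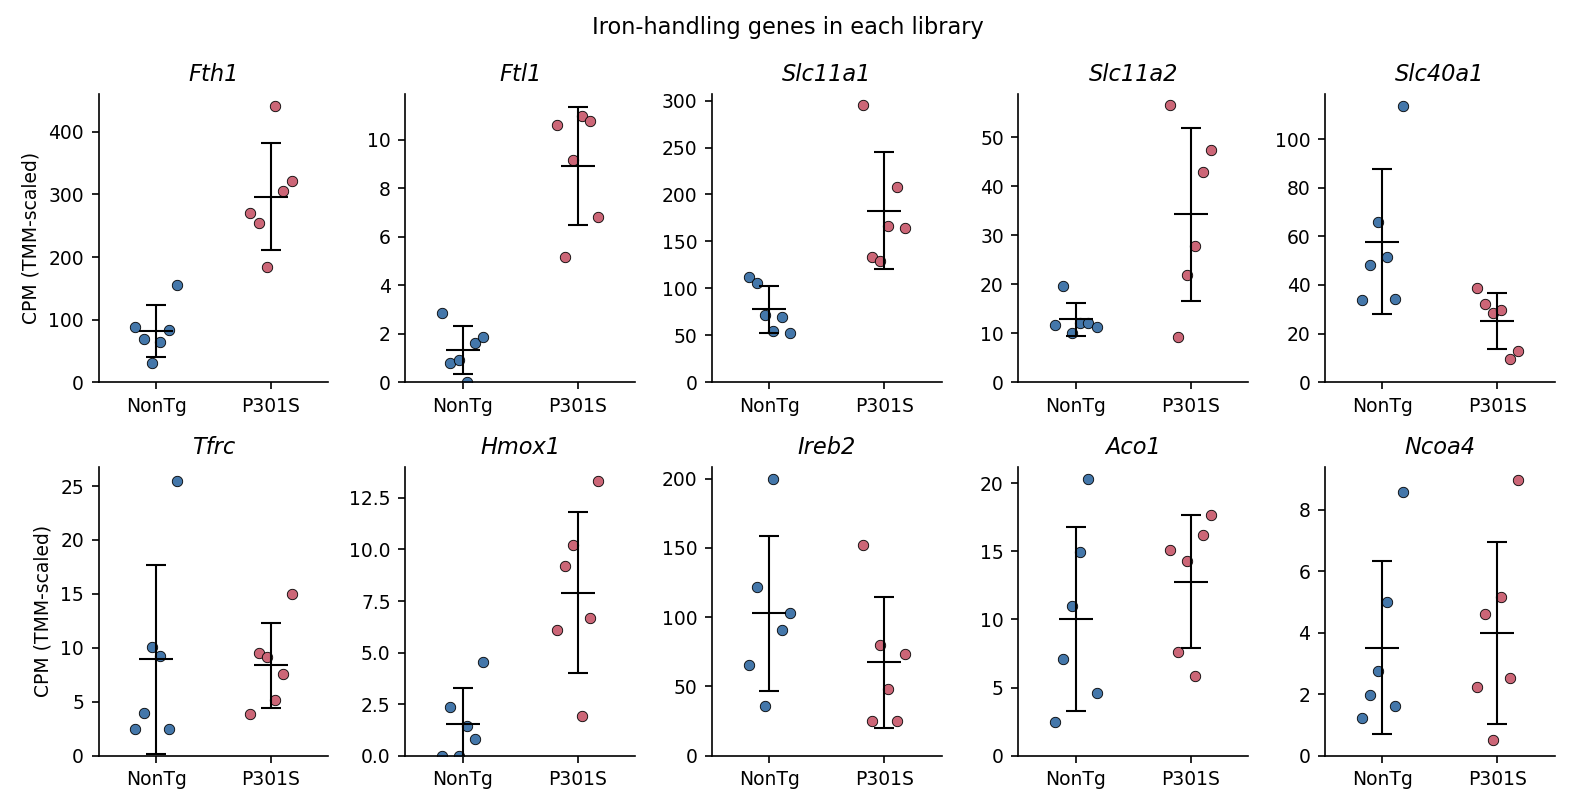
Each panel gives the TMM-scaled CPM of 1 gene on a linear axis from 0, with a point for each of 6 NonTg and 6 P301S libraries and a mark and bars for the mean ± SD, cut at 0. The groups are apart for Fth1, Ftl1 and Slc11a1, and for Slc11a2, Slc40a1 and Hmox1 1 P301S library lies among or beyond the NonTg values.

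Uptake and export gave no call. Tfrc encodes the transferrin receptor. Tfrc (22042, chr16:32608896-32632794) had a lowest, median and highest level of 2.43, 6.59 and 25.5 CPM in NonTg and of 3.86, 8.39 and 15.0 CPM in P301S. The P301S range lay within the NonTg range, which NonTg 6 widens: the next NonTg library was at 10.1 CPM. The log2 fold change was -0.10 ± 0.71, with a 95% interval of -1.55 to 1.35 and an adjusted p of 0.968 (edgeR), and without NonTg 6 it was 0.60. That interval leaves room for more than a doubling or a halving, so these counts do not show that Tfrc stayed level.

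Slc40a1 encodes ferroportin, the iron exporter of cells. Slc40a1 (53945, chr1:45908070-45926532) had a lowest, median and highest level of 33.7, 49.8 and 114 CPM in NonTg. In P301S these were 9.52, 29.1 and 38.9 CPM. All 6 P301S libraries were below the NonTg median and 5 of 6 were below the lowest NonTg library. The log2 fold change was -1.20 ± 0.43 (95% interval -2.08 to -0.32), and the adjusted p of 0.125 (edgeR) did not pass. Over the alternatives the adjusted p lay between 0.0558 and 0.367, the highest without NonTg 6, which was at 114 CPM. Without that library the log2 fold change was -0.88.

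Hmox1 encodes haem oxygenase, which opens haem and frees its iron. Hmox1 (15368, chr8:75093618-75100593) had a lowest, median and highest level of 0, 1.12 and 4.56 CPM in NonTg and of 1.94, 7.94 and 13.3 CPM in P301S. In P301S, 5 of 6 libraries were above all of NonTg, and P301S 4, at 1.94 CPM, was not. NonTg 1 and NonTg 3 had no count, where 3 counts would be 1.22 and 2.74 CPM, and the groups rest on 26 and 146 counts. The fit gave a log2 fold change of 2.22 ± 0.84 (95% interval 0.49 to 3.95), with an adjusted p of 0.156 (edgeR). Without NonTg 6, the highest NonTg library, it was 2.98 (adjusted p = 0.101). It was called by limma on log2 of the adjusted RPKM plus 1 (0.78, adjusted p = 0.0381) or plus 0.1 (2.16, adjusted p = 0.0400).

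The iron regulatory proteins, which read cytosolic iron and bind IREs, are encoded by Aco1 and Ireb2. Aco1 acts as an aconitase when it holds an iron-sulphur cluster and binds RNA when it does not, and Ireb2 is degraded when iron is ample. Ireb2 (64602, chr9:54862658-54912534) had a lowest, median and highest level of 35.6, 97.0 and 199.5 CPM in NonTg and of 25.1, 60.8 and 152 CPM in P301S. In P301S, 5 of 6 libraries were below the NonTg median, with P301S 1 the exception at 152 CPM. The fitted log2 difference was -0.61 ± 0.41 (95% interval -1.46 to 0.24), with an adjusted p of 0.521 (edgeR). Aco1 (11428, chr4:40143265-40199009) had a lowest, median and highest level of 2.44, 9.01 and 20.3 CPM in NonTg and of 5.81, 14.7 and 17.7 CPM in P301S. The P301S range lay within that of NonTg. Its fitted log2 difference was 0.37 ± 0.64 (95% interval -0.94 to 1.69), with an adjusted p of 0.857 (edgeR).

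Levels of different genes were compared only on the scale of the authors' adjusted RPKM, which carries the authors' own length for each gene. These lengths need not be those of the first listed transcripts, so the order holds for that scale only. Fth1 was the highest of the 10 in both groups, at 12.1 ± 6.00 RPKM in NonTg and 44.2 ± 13.4 in P301S (SD, n = 6 each). Slc11a1 came next in both, at 6.80 ± 2.22 and 16.1 ± 5.34 RPKM. In NonTg it was followed by Slc40a1 (3.70), Ireb2 (3.23), Aco1 (0.524), Slc11a2 (0.412), Tfrc (0.385), Ftl1 (0.310), Hmox1 (0.215) and Ncoa4 (0.184). The only neighbours in that order whose libraries did not overlap were Ireb2 and Aco1, so the first 4 genes form an upper tier. In P301S the order after Slc11a1 was Ireb2 (2.11), Ftl1 (2.07), Slc40a1 (1.62), Hmox1 (1.12), Slc11a2 (1.10), Aco1 (0.663), Tfrc (0.363) and Ncoa4 (0.211). There Fth1 was clear of Slc11a1, Slc11a1 was clear of Ireb2, and all later neighbours overlapped. Ftl1 and Ncoa4 are also the members with most shared sequence, and its part in their low levels was not tested.

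Within a library, the ratio of 2 members does not depend on scaling, so 4 ratios were compared between the groups with 0.5 added to each count (exact permutation test, two-sided, 924 assignments). The ratio of Fth1 to Ftl1 was 5.78 ± 1.10 on the log2 scale in NonTg and 5.03 ± 0.52 in P301S (exact permutation p = 0.165, adjusted over the 4 ratios 0.219). A difference in change between the heavy and light chain was thus not shown. The difference in means of -0.75 depends on the added value, since Ftl1 had at most 7 counts in a NonTg library. It was -0.43 with 1 added to each count and -0.40 without NonTg 4. The ratio of Slc11a1 to Slc11a2 was 2.54 ± 0.40 against 2.57 ± 0.68 (exact permutation p = 0.935, adjusted 0.935). The ratio of Ireb2 to Aco1 was 3.45 ± 1.25 against 2.19 ± 0.97 (exact permutation p = 0.0823, adjusted 0.165). The ratio of Tfrc to Slc40a1, receptor over exporter, was -3.01 ± 0.68 in NonTg and -1.53 ± 1.31 in P301S (SD, n = 6 each). That difference of 1.48 had an exact permutation p of 0.0346 and an adjusted p of 0.139. The groups overlapped in all 4 ratios.

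**Figure D4:**
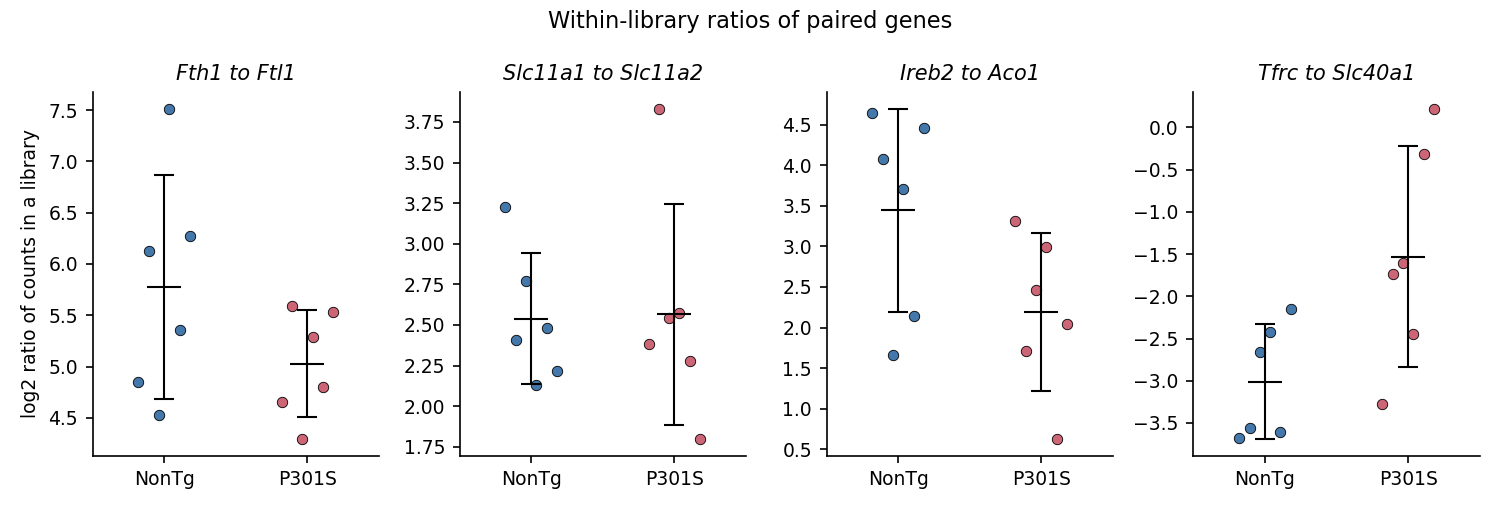
Each panel gives the log2 ratio of counts of 2 genes in a library, with 0.5 added to each count, as a point per library and a mark and bars for the mean ± SD (6 per group), on axes that do not start at 0. The groups overlap in all 4 panels, and the largest difference in means is 1.48 for Tfrc to Slc40a1.

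Around the members, 102 other genes of iron and haem metabolism were listed by role, of which 62 were tested. Of these, 2 rose, 1 fell and 59 did not pass, which is 4.84% called against 3.87% of all genes, with a median log2 fold change of -0.02. The list of uptake and endosomal release had 8 of 16 genes tested, with 1 that rose, none that fell and a median of 0.55. The gene that rose was Trf, transferrin itself, in the brain known mostly from oligodendrocytes and choroid plexus. Its lowest, median and highest levels were 22.7, 72.9 and 85.5 CPM in NonTg and 86.2, 117 and 365 CPM in P301S, with a log2 fold change of 1.23 ± 0.35 and an adjusted p of 0.0435 (edgeR). The groups met closely without overlap, and P301S 3 stood alone at 365 CPM. Trf was no longer called on leaving out any of 9 of the 12 libraries, with a log2 fold change of 0.80 and an adjusted p of 0.226 without P301S 3. Nor was it called by limma voom (0.96, adjusted p = 0.130) or by limma on RPKM plus 1 (adjusted p = 0.0826) or plus 0.1 (0.0858). The summed oligodendrocyte markers were 199.5 to 288.5 CPM in NonTg and 192 to 494 in P301S, and their part in the Trf result was not tested. Hfe, which binds the transferrin receptor, had a log2 fold change of -1.21 ± 0.52 and did not pass (adjusted p = 0.235, edgeR), although limma voom called it (-1.74, adjusted p = 0.0455).

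The list of mitochondrial iron and iron-sulphur clusters had 14 of 22 genes tested, with none that rose, 1 that fell and a median of -0.22. Slc25a37, mitoferrin 1, which imports iron into mitochondria, fell from 353 ± 88.8 to 171 ± 87.1 CPM (SD, n = 6 each). The groups overlapped: the lowest NonTg library was at 288 CPM and P301S 6 at 296 CPM. P301S 1 was at 267 CPM, while the P301S median was 128 CPM. The log2 fold change of Slc25a37 was -1.04 ± 0.27 (adjusted p = 0.0218, edgeR). The gene was no longer called on leaving out any of 5 libraries, with a highest adjusted p of 0.0874. Cisd2 in the same list had -1.14 ± 0.43 and did not pass (adjusted p = 0.154, edgeR). The list of Nrf2, Bach1 and defence against lipid peroxides had 13 of 18 genes tested, with 1 that rose, none that fell and a median of 0.17. Nfe2l2 encodes Nrf2, a transcription factor known to activate Fth1, Ftl1, Slc40a1 and Hmox1. It was at 198 ± 77.2 CPM in NonTg and 357 ± 25.4 in P301S, and the groups did not overlap. Its log2 fold change was 0.85 ± 0.24 (adjusted p = 0.0428, edgeR), and it was no longer called on leaving out any of 9 libraries, with a highest adjusted p of 0.0951. Its call was also lost with upper-quartile factors (adjusted p = 0.0557) and with a filter of at least 1 CPM in 6 libraries (0.0513). Sod2, the mitochondrial superoxide dismutase, had -1.33 ± 0.52 and did not pass (adjusted p = 0.172, edgeR).

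No gene passed in the other 4 lists. Haem uptake, export and breakdown had 9 of 13 genes tested and a median log2 fold change of 0.45, led by Flvcr2 (2.10 ± 0.84, adjusted p = 0.186, edgeR) and the scavenger receptor Lrp1 (0.45 ± 0.19, adjusted p = 0.205). Flvcr2 was at 50.4 CPM in P301S 5 and at most 10.1 CPM in the others, and its log2 fold change without P301S 5 was 0.99. Haem synthesis had 8 of 12 tested and a median of -0.23, with Slc25a38 at -1.46 ± 0.76 (adjusted p = 0.364, edgeR) and ferrochelatase, Fech, at -0.61 ± 0.54 (adjusted p = 0.664). Slc25a38 was at 83.1 CPM in NonTg 3 and at most 12.98 CPM in the others, and its log2 fold change without NonTg 3 was -0.081. Export and the hepcidin axis had 4 of 12 tested and a median of 0.04, with Smad1 at -0.46 ± 0.38 (adjusted p = 0.644, edgeR) and the ferroxidase Cp at 0.14 ± 0.48 (adjusted p = 0.935). Chaperones and ferritin turnover had 6 of 9 tested and a median of -0.18, with Tax1bp1 at -0.50 ± 0.28 (adjusted p = 0.402, edgeR) and Glrx3 at -0.44 ± 0.69 (adjusted p = 0.842).

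**Figure D5:**
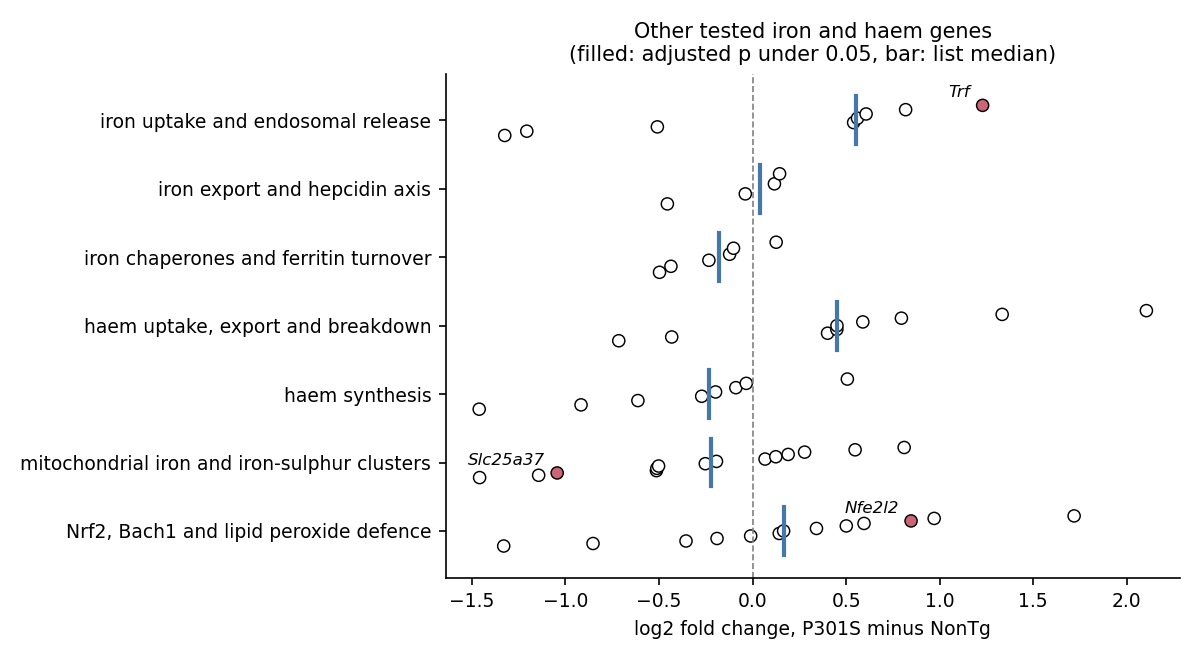
Points give the log2 fold change of P301S minus NonTg for the 62 tested genes of 7 iron and haem lists, filled where the edgeR adjusted p was under 0.05, with a bar for each list's median. Trf (1.23), Nfe2l2 (0.85) and Slc25a37 (-1.04) are the 3 filled points, and the list medians lie between -0.23 and 0.55.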

How the data were processed

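RNA-seq libraries of sorted Cd11b-positive brain myeloid cells were analysed, 6 P301S and 6 NonTg, grouped by the genotype label. The submitters' processing notes name GSNAP and the build GRCm38. They give no version of the aligner, and the counting tool, annotation release and strandedness are not given in sources used here. The deposited count column holds uniquely aligned reads per gene model, per the file headers. The second column holds RPKM after a size-factor adjustment by the authors, per the file headers. In all 12 libraries a gene constant and a library constant turned counts into RPKM within a relative 1e-09, so both hold the same measurement.

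Symbols and gene coordinates came from a RefSeq table of GRCm38.p6 (31049 of 36528 numbers matched, 85.0%), and hairpin cores and shared windows from GENCODE M21 transcripts. Numbers without a symbol took 1.56% to 3.15% of a library and were kept. The whole table was fitted: filterByExpr with its minimum count of 10 (10022 genes kept), TMM scaling, and edgeR's robust quasi-likelihood test (edgeR 4.0.16, R 4.3.3), with Benjamini-Hochberg adjustment and a threshold of 0.05. The procedure was first tested on simulated data. CPM use TMM-scaled sizes. Ratios were tested in scipy 1.17.1. Reads carry no molecular identifiers, so limits set by 3 counts cover counting error only.

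Named were all 10 members and, in each other iron list, genes past the threshold or, where fewer than 2 passed, also those with the smallest p, to make 2; ferritin-like genes with counts; and the 3 genes most like each of the 4 members with the highest mean CPM, among genes of at least 20 CPM. A few items that this rule or the lists hold are not reported here. Members and lists were chosen with earlier results of these data known. Alternatives were other scalings, mitochondrial genes and Malat1 left out, other filters, DESeq2 1.42.0, limma 3.58.1 (voom, or log2 of RPKM plus 1 or 0.1), and leaving out each library.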

Additional observations from a re-analysis of the deposited data

Results flagged for a closer look

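The spread within a group was examined for 28 sets of 6 libraries, by the gap of the highest or lowest library to its nearest neighbour as a share of the whole range, with 0.625 as the critical value. Chance flags about 1 in 20 groups, and 2 stood out. For Slc11a2, NonTg 2 was at 19.6 CPM, with the next NonTg library at 12.2 CPM and a gap of 0.778 of the range. For Tfrc, NonTg 6 was at 25.5 CPM, with the next at 10.1 CPM and a gap of 0.670 of the range.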

How the results depend on the processing

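Fth1 and Slc11a1 kept their direction and call in all 21 alternatives, with log2 fold changes of 1.70 to 2.14 and 1.05 to 1.38. Ireb2, Aco1 and Slc40a1 kept direction and stayed short of the threshold in all 21. Ftl1 passed under DESeq2 (2.65), RPKM plus 1 (1.22) and RPKM plus 0.1 (2.60), Slc11a2 under DESeq2 (1.41), Hmox1 under RPKM plus 1 (0.78) and plus 0.1 (2.16), and Hfe under voom (-1.74). Tfrc, never called, turned positive under voom (0.19), RPKM plus 1 (0.0062) and RPKM plus 0.1 (0.16), and ranged from -0.34 to 0.60 on leaving out each library, positive without NonTg 6, P301S 1 or P301S 4. The Slc11a1 to Slc11a2 difference ranged from -0.22 to 0.18 on leaving out each library, that of Cp from -0.050 to 0.37 and the log2 ratio of Ncoa4 from -0.22 to 0.68; the cause was not tested. Over all genes, 1063 were called with no filter (38.7% rose) and 1044 with DESeq2 (46.1% rose), against 388 (61.3% rose), and 273 to 386 on leaving out each library. These counts come from unlike sets: DESeq2 gave an adjusted p to 15426 genes and the main fit tested 10022. The fit with no filter tested every gene with a count. Of the other iron genes, 6 were called with no filter, against 3, and 0 to 2 on leaving out each library. Ncoa4 was also compared by the ratio of mean RPKM, an alternative chosen after seeing the data. Depth limits Ftl1, Hmox1, Tfrc, Aco1 and Ncoa4 most. No paired analysis was possible because the labels give no replicate numbers, litters or pairs. The library numbers used here follow the order of the samples within each group and pair no libraries.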

Other observations

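The highest and lowest library of each group was recorded for each of the 10 iron genes. How often a library is an extreme over all genes was not counted, so these counts have no reference. NonTg 6 was the highest NonTg library for 5 of the 10: Fth1, Slc40a1, Tfrc, Hmox1 and Ncoa4. It was the lowest for Slc11a1. It was also the deepest NonTg library (3268914 counts), with the lowest mitochondrial share of its group (10.0%). NonTg 1 was the lowest for 4 (Slc40a1, Hmox1, Aco1 and Ncoa4). Among P301S libraries, P301S 1 was the highest for 4 (Slc11a1, Slc11a2, Slc40a1 and Ireb2) and P301S 6 for another 4 (Tfrc, Hmox1, Aco1 and Ncoa4).

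Genes that varied most like the 4 most abundant members were ranked by Pearson's r of log2 CPM over the 12 libraries after each group's mean was subtracted, among 5334 genes. The libraries share their depth and makeup of RNA, so these values describe the libraries and carry no test. Among those closest to Fth1 were Dnajb11 (0.909) and Srbd1 (0.897), and closest to Slc11a1 were Csf2rb (0.869), Smpd4 (0.838) and Susd6 (0.814). Closest to Ireb2 were Crot (0.847), Rab12 (0.816) and Ppp3cb (0.811), and closest to Slc40a1 were Canx (0.924), Uty (0.825) and Lrrc58 (0.816). None of the genes named here passed the test between the genotypes (lowest adjusted p 0.252 for Csf2rb, edgeR).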
